A study of Cricetulus griseus with 3 samples.

Results

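Poly-A RNA that copurified with midbodies was compared with poly-A RNA that copurified with mitotic spindle microtubules, transcript by transcript. Both came from CHO cells, an established line from the ovary of the Chinese hamster (Cricetulus griseus). These were 2 of the 3 samples of the series, and the third, interphase microtubules, is given as a level beside them. For all of them cells were held in 2 mM thymidine, which stops DNA synthesis, for 16 h, and interphase microtubules were taken from cells at that point. For the mitotic and midbody samples the cells were let out of thymidine for 5 h and kept in 0.1 ug/ml nocodazole, a reversible blocker of microtubule assembly, for another 4 to 5 h. Rounded mitotic cells were then shaken off, and fresh medium was applied for 15 min before mitotic microtubules were purified or for 65 min before midbodies were purified. With 1 library per group there is no replicate behind any difference, and no p-value is given. Time in fresh medium and the structure isolated changed together and cannot be told apart. Without whole-cell RNA beside them, RNA held on the structure, RNA more abundant in the cells and a change in which cells gave material cannot be told apart either.

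The midbody is the dense microtubule bundle that remains between daughter cells after the cleavage furrow has closed. It is built from the antiparallel microtubules of the central spindle, where the centralspindlin complex, PRC1 and the chromosomal passenger complex gather, and it is cut on its flanks by the ESCRT-III machinery. Mitotic chromatin is largely silent in transcription, and RNA synthesis starts again as cells leave mitosis.

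Every transcript of the deposited table was considered, and transcripts were named by the best-matching human protein that the authors recorded. Of 21607 transcripts, 20821 had such a protein, and these named 16069 different proteins. A transcript was compared when it reached 1 RPKM (reads scaled to transcript length and library total) in the midbody or the mitotic library, which left 13131 transcripts. With 1 transcript kept for each human protein, the one with most reads, 10621 remained. The level difference is log2((midbody RPKM + 1)/(mitotic RPKM + 1)), which understates differences of low transcripts. Folds quoted with an interval are ratios of CPM (reads scaled to the library total alone), and the interval is the exact 95% binomial (Clopper-Pearson) one, which covers counting error only. Where 3 levels stand in a row, the first is that of midbodies, the second of mitotic and the last of interphase microtubules.

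Depth was 5134865 reads for midbodies, 8059745 for mitotic and 12672056 for interphase microtubules. A transcript with 0 reads may stand at up to 3 reads, which is 0.584 CPM for midbodies and 0.372 CPM for mitotic microtubules. VIM, which encodes the intermediate filament vimentin and served as the marker of cultured CHO cells, stood at 239 RPKM on midbodies, 168 on mitotic microtubules and 205 on interphase microtubules. Of 13 markers of blood, liver, glial, muscle, epithelial, endothelial and granulosa cells, 12 were in the table and 3 passed 1 RPKM. The summed level of the 12 was 21.4 RPKM in midbodies, 28.9 in mitotic microtubules and 12.5 in interphase. The defining markers PTPRC of leukocytes and HBB of red cells had 0 reads in every library. The 3 that passed were INHA and AMH of granulosa cells and CD68 of macrophages, each at 12.2 RPKM or less.

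Most RNAs stood at nearly the same level on both structures. The median log2 ratio of all 13131 transcripts was -0.03, with quartiles of -0.29 and 0.22, and 51.3% lay within 1.2-fold. A 2-fold difference or more was reached by 274 transcripts that were higher (2.09%) and 237 that were lower (1.8%) in midbodies. At 4-fold these counts were 24 (0.183%) and 6 (0.0457%). The counting interval of the ratio lay above 1 for 21.3% of transcripts and below 1 for 24.5%, so many differences larger than counting error were small. With 1 transcript per human protein, 199 of 10621 (1.87%) were past 2-fold higher and 183 (1.72%) past 2-fold lower. Past 4-fold there were 19 (0.179%) and 4 (0.0377%), and the interval lay above 1 for 2447 (23%) and below 1 for 2759 (26%). An interval excludes 1 more readily where reads are many, so interval counts of a list also depend on its read depth. Over the same 10621 proteins the midbody library was the highest of the 3 libraries in 2354, the mitotic in 2979 and the interphase in 5288. These values are the background against which the gene lists below are read. Just inside the 2-fold limit, a log2 ratio of 1, was GCH1 at 1.0002, and just outside it LGALS3 at 0.998. Close to the limit on the other side, though not the nearest, were FUBP3 inside at -1.01 and PYCR1 outside at -0.996, both with reads partly divided. These examples come from proteins whose higher library reached both 10 RPKM and 50 reads.

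Numbers of higher and lower RNAs were similar over all levels, but not among abundant RNAs. Of 2579 proteins whose transcript averaged 50 RPKM or more over both libraries, 41 (1.59%) were at least 2-fold higher in midbodies and 2 (0.0775%) were at least 2-fold lower. Between 10 and 50 RPKM the counts were 75 and 49 of 5087. From 1 to 10 RPKM they were 78 and 100 of 2755. Proteins whose transcript averaged under 1 RPKM over both libraries are in none of these classes. Low read counts were common in both tails. Of the transcripts past 2-fold higher 46.7% had under 50 reads in both libraries, as had 48.5% of those past 2-fold lower and 16.4% of the 12620 between these limits.

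**Figure D1:**
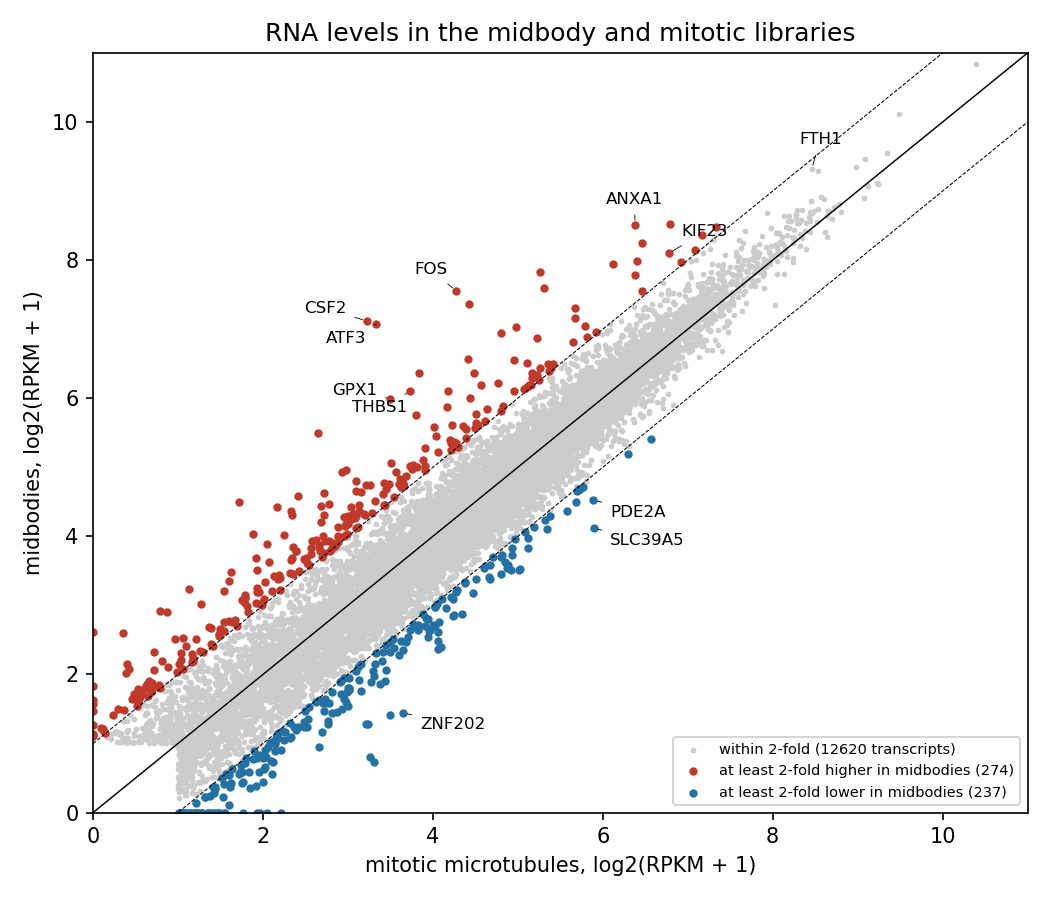
Level of each of the 13131 transcripts compared, as log2(RPKM + 1), in the mitotic library (horizontal axis) and the midbody library (vertical axis), with 1 library per axis. The solid line marks equal levels and dashed lines a 2-fold difference; the 274 transcripts past 2-fold higher (red) reach to the abundant end, whereas most of the 237 past 2-fold lower (blue) lie at low levels.

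The highest ratios belonged to a cytokine gene and to genes of stress and immediate early transcription factors. CSF2, which encodes the cytokine GM-CSF, stood at 138 RPKM on midbodies, 8.33 on mitotic microtubules and 24.3 on interphase microtubules. It ranked first of the 7847 proteins whose higher library reached both 10 RPKM and 50 reads, 16.6-fold (interval 11.3 to 25.2) higher in midbodies. ATF3, a stress-induced bZIP transcription factor gene, stood at 134 RPKM on midbodies, 9.09 on mitotic microtubules and 10.3 on interphase microtubules, which was 14.7-fold (interval 10.6 to 20.9) higher. Both were highest in the midbody library and lowest in the mitotic library. FOS, which encodes a subunit of the transcription factor AP-1, was at 188, 18.3 and 47.3 RPKM, 10.3-fold (interval 8.71 to 12.1) above mitotic microtubules. FOSB, its paralog, was at 164, 20.5 and 28.4 RPKM, or 7.97-fold (interval 6.58 to 9.73) higher.

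The next ratios were those of genes that restrain signalling and growth, of a matrix gene and of a stress enzyme. RGS2, which encodes a brake on G protein signalling, stood at 44.3, 5.26 and 51.9 RPKM, and was 8.42-fold (interval 5.68 to 12.9) higher in midbodies than in mitotic microtubules, with interphase at the highest level. BTG2, an antiproliferative gene, stood at 226, 37.3 and 54.2 RPKM, 6.06-fold (interval 5.18 to 7.13) higher. NR4A1, an orphan nuclear receptor induced by growth signals, was 6.14-fold (interval 5.21 to 7.27) higher. The glutathione peroxidase GPX1 was 6.07-fold (interval 4.68 to 7.94) higher, from 10.3 to 62.6 RPKM, but its interphase level was 115. THBS1, the matrix glycoprotein thrombospondin, was likewise highest in interphase, at 67.5, 12.3 and 111 RPKM.

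ANXA1, a calcium-dependent phospholipid-binding protein, was the most abundant of the 15 highest, at 365 RPKM on midbodies, 82.3 on mitotic microtubules and 191 on interphase microtubules, 4.44-fold (interval 4.09 to 4.81) higher. Also among the 15 highest were the prostaglandin synthase PTGS2, the zinc finger factor KLF4, the ubiquitin ligase BIRC3 and the TNF receptor adaptor TRAF1, with folds of 4.64, 4.54, 4.27 and 4.91. Reads of BIRC3 were partly divided with another transcript. The midbody library had the highest level of the 3 libraries in 11 of the 15, and the interphase library in the other 4 (RGS2, GPX1, THBS1 and TRAF1). Over all 10621 compared these counts were 2354 and 5288, and choice by the ratio itself keeps the mitotic library from being highest here. Each of the 15 had a counting interval above 1.

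Of these 15, 11 belonged to 5 lists of signal response genes: immediate early factors, NF-kappaB pathway, MAPK feedback, TGF-beta response, and DNA damage response with growth arrest. Among the 199 proteins past 2-fold higher, 31 (15.6%) were in the same 5 lists, beside 82 of all 10621 compared (0.772%). None of the 183 past 2-fold lower was. The lists were chosen with earlier results of these data known, so the counts describe where the high RNAs lie and are no independent evidence.

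**Figure D2:**
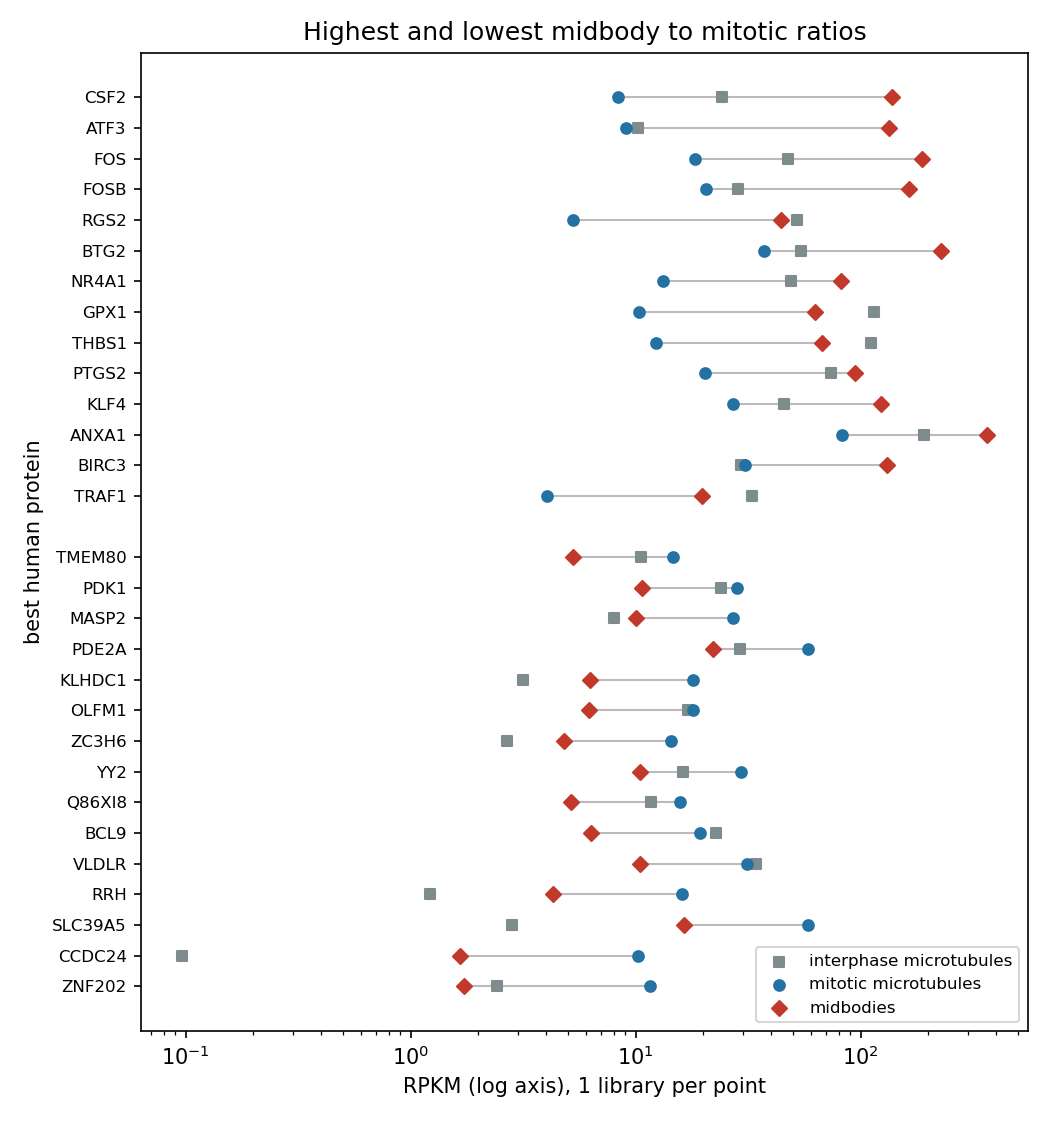
RPKM on a log axis in the interphase (grey squares), mitotic (blue circles) and midbody (red diamonds) libraries for 14 of the 15 highest and the 15 lowest midbody to mitotic ratios among proteins whose higher library reached both 10 RPKM and 50 reads, 1 library per point. The highest reach up to the 365 RPKM of ANXA1, whereas none of the 15 lowest passes the 58.4 RPKM of SLC39A5 in the mitotic library.

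Most of the compared secreted ligands and NF-kappaB pathway genes were higher in midbodies. NF-kappaB is a family of transcription factors held in the cytoplasm by IkB proteins until inflammatory or stress signals release it. Of 27 listed genes 24 were in the table and 18 passed the floor; 10 of these were at least 2-fold higher in midbodies, 0 were 2-fold lower, and all 18 had a ratio above 0. The counting interval lay above 1 in 15 and included 1 for LIF, NFKB1 and RELB. The median log2 ratio was 1.14, beside -0.02 over 1 transcript of each human protein. Of those proteins 1.87% were past 2-fold higher, 1.72% past 2-fold lower, and 23% had an interval above 1. The midbody library was the highest of the 3 libraries in 14 of 18, and interphase in 4, beside 2354 and 5288 of all 10621 compared.

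Among the ligands, CCL2, a monocyte chemokine, stood at 357 RPKM on midbodies, 160.3 on mitotic microtubules and 196 on interphase microtubules, 2.23-fold (interval 2.05 to 2.42) higher. The neutrophil chemokine transcript with CXCL2 as best human protein, which carries the hamster symbol Cxcl1, was at 304, 87.0 and 56.2 RPKM, 3.49-fold (interval 3.18 to 3.83) higher. CSF1, the macrophage growth factor, with reads partly divided, was 2.84-fold (interval 2.33 to 3.50) higher at a lower level, 20.5 RPKM in midbodies. IL6, at 6.90 against 3.27 RPKM, had a log2 ratio of 0.89, short of 2-fold on this scale though its read ratio was 2.11-fold (interval 1.27 to 3.54). CSF3 and IL11 were 1.70 and 1.55 times their mitotic level, and LIF had an interval that included 1 (0.964 to 1.52).

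Inhibitors of the pathway had larger ratios than its DNA-binding subunits. NFKBIA, which encodes IkB-alpha and is itself an NF-kappaB target, stood at 369 RPKM on midbodies, 110.1 on mitotic microtubules and 90.0 on interphase microtubules, 3.35-fold (interval 3.09 to 3.63) higher. TNFAIP3, the ubiquitin-editing inhibitor A20, was at 53.1, 13 and 45.3 RPKM, 4.08-fold (interval 3.54 to 4.73) higher, and NFKBIE, another IkB gene, was 2.27-fold (interval 1.93 to 2.66) higher. The subunit genes REL and RELA were 1.60 and 1.30 times their mitotic level. NFKB1 and RELB had intervals of 0.991 to 1.39 and 0.982 to 1.40, both including 1. The adhesion receptor gene ICAM1, a target, was at 143, 50.01 and 99.97 RPKM, 2.85-fold (interval 2.65 to 3.07) higher.

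Growth factor signalling by MAP kinase was less uniform. Of 14 ligands and feedback inhibitors compared, 3 were at least 2-fold higher and 0 lower, beside 1.87% and 1.72% of all compared. The median log2 ratio of the 14 was 0.11. AREG, the EGF receptor ligand amphiregulin, stood at 249.9 RPKM on midbodies, 120.3 on mitotic microtubules and 72.1 on interphase microtubules, 2.08-fold (interval 1.94 to 2.22) higher. The ligands EREG and HBEGF were 1.45 and 1.39 times their mitotic level, and reads of EREG were partly divided. Of the MAP kinase phosphatases, DUSP4 stood at 11.8, 4.08 and 32.2 RPKM, 2.90-fold (interval 1.94 to 4.40) higher but highest in interphase. DUSP1 was 2.08-fold (interval 1.86 to 2.33) higher, while DUSP6 had an interval of 0.944 to 1.36. SPRED1, a Ras pathway inhibitor, was lower, 19.9 RPKM in mitotic microtubules against 13.9 in midbodies.

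Of 28 immediate early transcription factors and related early genes, 22 were in the table and passed the floor, of which 11 were at least 2-fold higher in midbodies and 0 at least 2-fold lower. Over all compared, 1.87% were past 2-fold higher and 1.72% lower. The median log2 ratio of the list was 0.98. The interval lay above 1 in 17 and below 1 in 2, beside a background of 23% and 26%. The midbody library was the highest of the 3 in 15, beside 2354 of all 10621 compared. JUN, the partner of FOS in AP-1, was at 253, 83.7 and 62.1 RPKM, 3.03-fold (interval 2.82 to 3.24) higher. JUNB, at 189, 108 and 117 RPKM, was 1.75-fold (interval 1.56 to 1.96) higher. FOSL2 was low, with 46 reads against 16, and its interval of 2.51 to 8.54 was correspondingly wide.

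The EGR zinc finger factors had ratios on both sides of 1. EGR2 stood at 29.5, 6.64 and 16 RPKM and was 4.45-fold (interval 3.34 to 5.98) higher in midbodies, and EGR3 at 68.0, 30.01 and 46.2 RPKM was 2.27-fold (interval 1.96 to 2.63) higher. EGR1 went the other way, at 103 RPKM in midbodies, 155 in mitotic microtubules and 86.8 in interphase, lower by a factor of 1.499 (interval 1.38 to 1.62). The nuclear receptors differed likewise: NR4A1 was 81.4 against 13.3 RPKM, whereas NR4A2, some of whose reads were divided, was 28.3 against 29.4. Of the Krüppel-like factors, KLF4 was at 123, 27.0 and 45.6 RPKM and KLF6 at 132, 54.3 and 54.7 RPKM, both over 2-fold higher, and KLF10 was lower, at 31.7, 44.4 and 36.4 RPKM. IER3, an early gene that limits cell death, was the most abundant of the list at 412 RPKM in midbodies, against 243 in mitotic microtubules.

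AU-rich elements are sequences that make many early response RNAs short-lived. Of 8 compared proteins that bind them, 1 was past 2-fold higher and 1 lower, beside 1.87% and 1.72% of all compared. Their median log2 ratio was 0.04. ZFP36, which encodes tristetraprolin and promotes decay of such RNAs, stood at 157 RPKM on midbodies, 50.2 on mitotic microtubules and 56.6 on interphase microtubules, 3.12-fold (interval 2.86 to 3.41) higher. KHSRP, which also promotes their decay, was at 35.7, 77.5 and 139 RPKM and lower in midbodies by a factor of 2.17 (interval 1.93 to 2.45). ZC3H12A, the endonuclease Regnase-1, was 1.52-fold (interval 1.41 to 1.64) higher. TIA1 and ELAVL1 were lower, at 0.788 and 0.844 times their mitotic level.

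RNAs of genes that respond to TGF-beta and BMP, secreted factors that act through SMAD proteins, were also mostly higher than in mitotic microtubules. Of 14 genes compared 5 were at least 2-fold higher and 0 lower, beside 1.87% and 1.72% of all compared. The median log2 ratio was 0.85, and the interval lay above 1 in 10 and below 1 in 1, beside 23% and 26%. The midbody library was the highest of the 3 in 6 and the interphase library in 7, beside 2354 and 5288 of all 10621 compared. Besides THBS1, ID3, an inhibitor of basic helix-loop-helix factors and a BMP target, was at 81.9, 21.3 and 56.4 RPKM, 3.84-fold (interval 3.19 to 4.64) higher. ID1 was 2.24-fold (interval 1.77 to 2.83) higher. INHBA, the activin A subunit, was detected at a low level, 32 reads against 5, 10.05-fold (interval 3.89 to 33.0) higher. The pathway's own parts SKI and TGFB1 had intervals that included 1, 0.947 to 1.15 and 0.863 to 1.24. CCN1, a matricellular target of YAP, was 2.22-fold (interval 1.98 to 2.49) higher, yet the median of the 10 YAP and TEAD pathway genes was -0.28, and AMOTL2, also a YAP target, was lower by a factor of 1.59 (interval 1.39 to 1.81).

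In the DNA damage response and growth arrest list 3 of 15 genes were at least 2-fold higher and 0 lower, beside 1.87% and 1.72%. The median log2 ratio was 0.72. The interval lay above 1 in 10 and below 1 in 2, beside a background of 23% and 26%. The midbody library was the highest of the 3 in 7 and the interphase library in 7, beside 2354 and 5288 of all 10621 compared. PLK2, a polo-like kinase induced by damage and growth signals, stood at 117, 36.4 and 49.5 RPKM, 3.20-fold (interval 2.94 to 3.48) higher. MDM2, a ubiquitin ligase, was at 203, 104 and 105 RPKM, 1.95-fold (interval 1.85 to 2.06) higher, and CDKN1A, the cyclin-dependent kinase inhibitor p21, at 85.6, 44.5 and 106 RPKM was 1.92-fold (interval 1.73 to 2.14) higher. BTG2, counted here and among the early genes, had the highest ratio of the list.

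**Figure D3:**
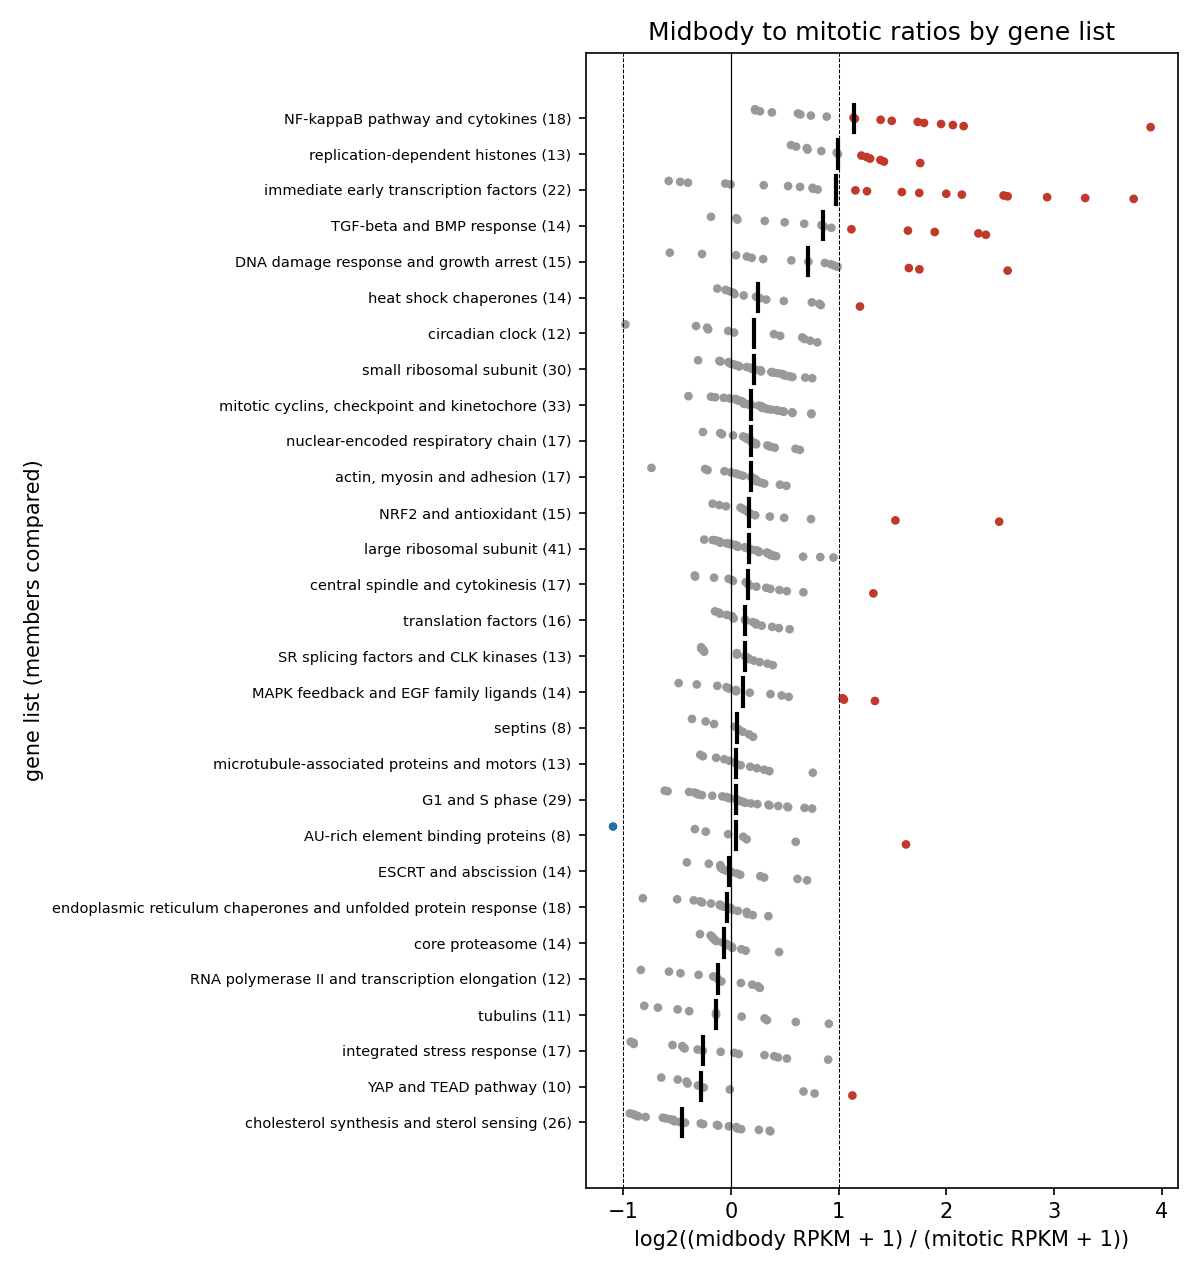
Midbody to mitotic log2(RPKM + 1) ratio of every compared member of 29 gene lists, 1 point per human protein, with the number compared in brackets; vertical bars mark the median and dashed lines 2-fold. Members past 2-fold higher (red) gather in the NF-kappaB, histone, immediate early, TGF-beta, DNA damage response and MAPK feedback lists, and the lowest median, -0.45, is that of cholesterol synthesis and sterol sensing.

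KIF23 was the single member of the central spindle and cytokinesis list past 2-fold. It encodes MKLP1, the motor subunit of centralspindlin that bundles midbody microtubules, and stood at 274 RPKM on midbodies, 109 on mitotic microtubules and 79.0 on interphase microtubules. That difference, 2.51-fold (interval 2.40 to 2.63), ranked it 49 of 7847. Its partner in the same complex, RACGAP1, was at 107, 91.2 and 88.0 RPKM, 1.18-fold (interval 1.09 to 1.27) higher. PRC1, the bundler of antiparallel microtubules, was 1.37-fold (interval 1.25 to 1.497) higher, with reads partly divided. CEP55, which recruits ESCRT proteins to the midbody, was 1.26-fold (interval 1.18 to 1.34) higher. KIF20B, a kinesin of late cytokinesis, was 1.44-fold (interval 1.37 to 1.503) higher.

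The furrow regulators lay on both sides. ECT2, the exchange factor that centralspindlin recruits to activate RHOA, was lower in midbodies, 36.2 against 46.0 RPKM, with an interval of 0.709 to 0.873. RHOA was 1.29-fold (interval 1.18 to 1.42) higher. CIT, the midbody kinase citron, was at 8.82 against 11.4 RPKM. In the chromosomal passenger complex BIRC5 (survivin) was 1.61-fold (interval 1.39 to 1.85) higher and INCENP was at 0.895 times its mitotic level, both with reads partly divided. AURKB had an interval of 0.839 to 1.15. Of all 17 listed genes 10 had an interval above 1 and 3 below 1, beside a background of 23% and 26%, and the median log2 ratio was 0.16.

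Of 33 mitotic cyclins, checkpoint and kinetochore genes 0 were past 2-fold in either direction, beside 1.87% higher and 1.72% lower of all compared. The interval lay above 1 in 19 and below 1 in 2, beside a background of 23% and 26%, and the median was 0.19. CCNB2, a B-type cyclin, stood at 146 RPKM on midbodies, 86.6 on mitotic microtubules and 124 on interphase microtubules, 1.68-fold (interval 1.55 to 1.83) higher, whereas the main mitotic cyclin CCNB1 had an interval of 0.994 to 1.19. MAD2L1, a spindle checkpoint protein, was 1.70-fold (interval 1.48 to 1.95) higher. CENPF and CENPE, long transcripts of kinetochore proteins, were 1.41-fold (interval 1.37 to 1.44) and 1.34-fold (interval 1.30 to 1.38) higher. ESPL1, the protease separase that splits sister chromatids, was lower at 31.2 against 41.4 RPKM.

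Most genes of the abscission machinery had an interval that included 1. Of 14 ESCRT genes 0 passed 2-fold, beside 1.87% higher and 1.72% lower of all compared, and the median log2 ratio was -0.02. The interval lay above 1 in 3 and below 1 in 0, beside a background of 23% and 26%. CHMP4B, the main ESCRT-III filament subunit, was at 74.3, 45.2 and 129 RPKM, 1.65-fold (interval 1.40 to 1.93) higher. TSG101 and PDCD6IP (ALIX), the adaptors through which ESCRT-III is brought to the midbody, had intervals of 0.888 to 1.21 and 0.872 to 1.003. The microtubule-severing enzyme SPAST, with an interval of 0.827 to 1.05, could not be told from equal at this depth. For the 8 septins, filament proteins of the furrow, the median was 0.05, and the members ranged from SEPTIN10 at -0.36 to SEPTIN6 at 0.20 on the log2 scale.

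Tubulin transcripts differed among themselves, though 6 of the 11 compared had partly divided reads, which makes single members uncertain. Which transcripts share those reads is not known. TUBB4B stood at 287, 152 and 112 RPKM, 1.88-fold (interval 1.77 to 2.003) higher in midbodies. TUBB, whose midbody and mitotic reads were whole numbers, was at 162, 260.2 and 150.1 RPKM and lower by a factor of 1.61 (interval 1.51 to 1.71). The rare epsilon-tubulin TUBE1 was lower by a factor of 1.79 (interval 1.56 to 2.05). For tubulins 4 intervals lay above 1 and 4 below, beside a background of 23% and 26%, with a median of -0.14. Among 13 microtubule-associated proteins and motors, NUSAP1, a spindle-bundling protein with partly divided reads, was 1.71-fold (interval 1.49 to 1.96) higher, MAP1B was 1.06-fold (interval 1.04 to 1.09) higher and the dynein heavy chain DYNC1H1 was at 0.831 times its mitotic level. None of these passed 2-fold, beside 1.87% higher and 1.72% lower of all compared. In the actin and adhesion list of 17 none did either. DIAPH3, a formin, was 1.44-fold (interval 1.31 to 1.58) higher, and TLN1, talin, with partly divided reads, was at 0.587 times its mitotic level.

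Cholesterol synthesis and sterol sensing had the lowest median of the 29 plotted lists, -0.45. The pathway is switched on by the transcription factor SREBF2 when membrane sterol is scarce, and its enzymes convert acetyl-CoA to cholesterol. Of 26 compared 16 had an interval below 1 and 3 above 1, beside a background of 26% and 23%. Past 2-fold lower were 0, beside 1.72% of all compared. SREBF2 stood at 21.4 RPKM on midbodies, 39.8 on mitotic microtubules and 70.1 on interphase microtubules, lower in midbodies by a factor of 1.86 (interval 1.68 to 2.05). INSIG1, the sterol sensor that is itself an SREBF2 target, was at 23.2, 45.4 and 31.8 RPKM and lower by a factor of 1.96 (interval 1.73 to 2.23).

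SQLE, squalene epoxidase, a control point of the pathway, was at 16.4, 30.9 and 51.0 RPKM, lower by a factor of 1.89 (interval 1.46 to 2.46). IDI1, which isomerises the isoprenoid building block, was lower by a factor of 1.78 (interval 1.52 to 2.08). Not all members were lower. CYP51A1, a demethylase of the late pathway, was 1.199-fold (interval 1.12 to 1.28) higher, and the cholesterol exporters of the lysosome and plasma membrane, NPC1 and ABCA1, were 1.32 and 1.30 times their mitotic level. Reads of NPC1 were partly divided. The interphase library was the highest of the 3 for 15 of the 26, the mitotic library for 10 and the midbody library for 1. Over all 10621 compared these counts were 5288, 2979 and 2354.

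**Figure D4:**
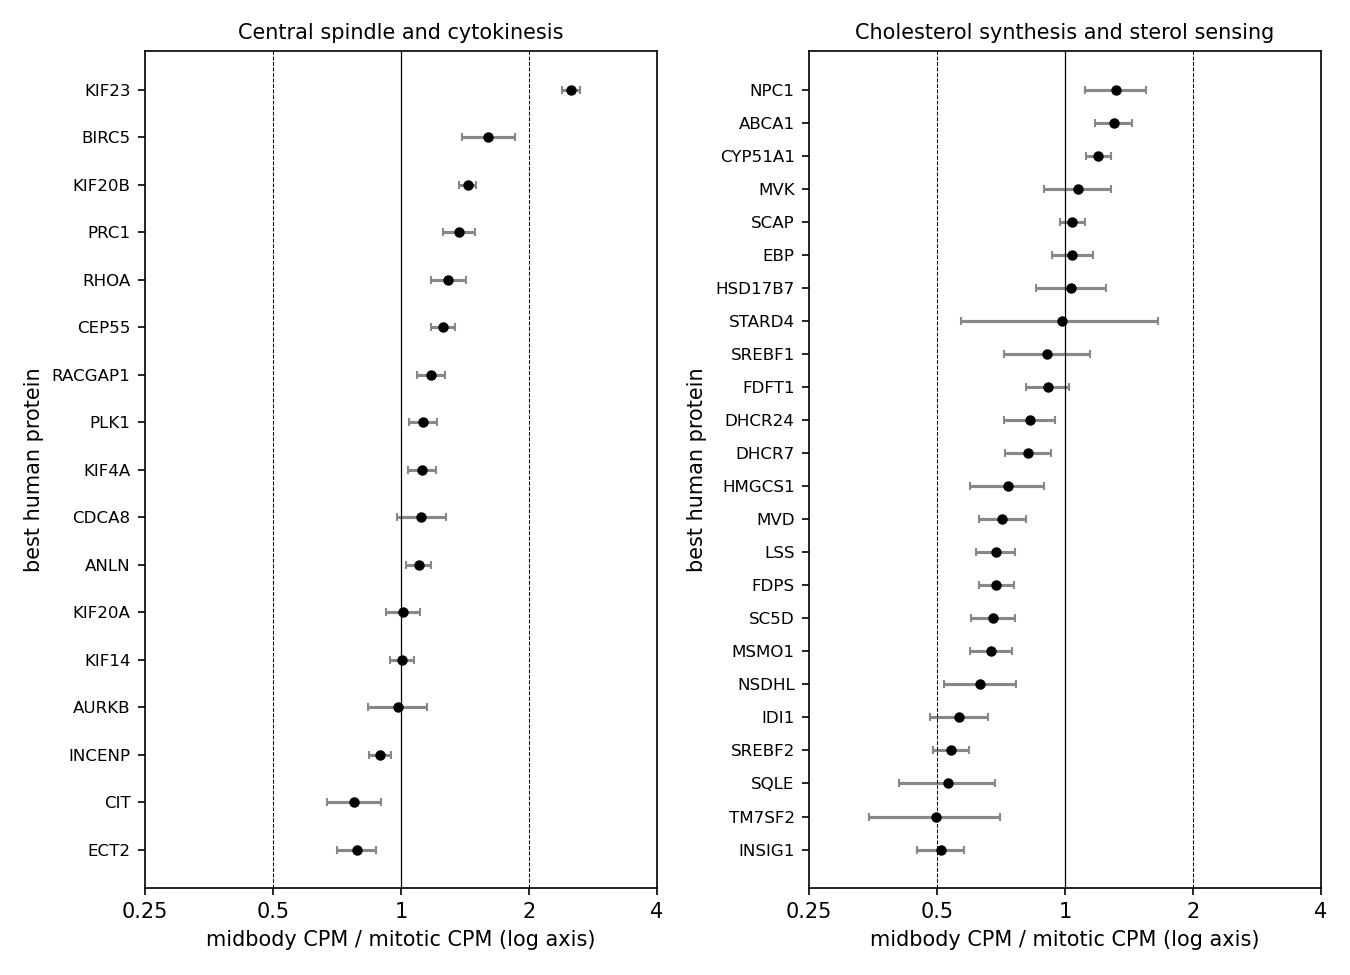
Ratio of midbody to mitotic CPM on a log axis for each member of the central spindle and cytokinesis list (left) and for 24 of 26 members of the cholesterol synthesis and sterol sensing list (right), 1 library per side, with exact 95% binomial intervals that cover counting error only. KIF23 at 2.51 stands alone past 2-fold on the left, and 14 of the 24 intervals on the right lie below 1.

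Stress pathways gave medians of both signs, and their interval counts stand beside a background of 23% above 1 and 26% below 1. Of 14 heat shock chaperones 9 had an interval above 1 and 0 below 1, with a median of 0.25. DNAJA1, a co-chaperone of HSP70, stood at 81.3 RPKM on midbodies, 34.9 on mitotic microtubules and 61.7 on interphase microtubules, 2.33-fold (interval 2.11 to 2.57) higher, and BAG3 and HSPH1, also HSP70 partners, were 1.80-fold (interval 1.64 to 1.98) and 1.78-fold (interval 1.65 to 1.91) higher. In the integrated stress response, where ATF4 induces amino acid genes, 5 of 17 intervals lay above 1 and 8 below 1, with a median of -0.26. ATF4 was at 271, 218 and 162 RPKM and 1.24-fold (interval 1.16 to 1.33) higher. Its target DDIT3 (CHOP), with partly divided reads, was 1.44-fold (interval 1.30 to 1.59) higher.

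Several amino acid enzymes and transporters of the same response were lower. ASNS, asparagine synthetase, whose reads were partly divided, was at 16.4, 31.6 and 19.96 RPKM, lower by a factor of 1.93 (interval 1.62 to 2.28). The transporters SLC7A11 and SLC1A4 were lower by a factor of 2.06 (interval 1.52 to 2.82) and a factor of 1.93 (interval 1.57 to 2.39). For the transporters SLC3A2 and SLC7A5 the intervals included 1, 0.974 to 1.13 and 0.870 to 1.004. Of 18 endoplasmic reticulum chaperones and unfolded protein response genes 0 passed 2-fold and the median was -0.04. Over all compared, 1.87% were past 2-fold higher and 1.72% lower. HSPA5 (BiP), the main chaperone there, was at 201, 201 and 257.04 RPKM, with an interval of 0.949 to 1.05. Of the NRF2 and antioxidant genes 2 of 15 passed 2-fold higher: GPX1, above, and SRXN1, sulfiredoxin, at 3.23-fold (interval 1.79 to 6.02). GPX4, at 342, 204 and 315 RPKM, was 1.68-fold (interval 1.56 to 1.80) higher.

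The cell cycle genes of the next phase lay on both sides of 1. Of 29 G1 and S phase genes 0 passed 2-fold, beside 1.87% higher and 1.72% lower of all compared. The interval lay above 1 in 10 and below 1 in 7, beside a background of 23% and 26%, and the median was 0.05. RRM2, a ribonucleotide reductase subunit, was at 134, 83.2 and 204 RPKM and 1.61-fold (interval 1.47 to 1.77) higher. PCNA, the replication clamp, was 1.45-fold (interval 1.31 to 1.60) higher, while CCNE1, cyclin E1, was lower at 6.61 against 10.7 RPKM. CDK2, its partner, was lower by a factor of 1.52 (interval 1.27 to 1.83). Among 12 circadian clock genes, BHLHE41 was 1.68-fold (interval 1.39 to 2.03) higher. PER2 was the lowest of them, at 5.02 against 10.9 RPKM, lower by a factor of 2.17 (interval 1.73 to 2.74).

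Replication-dependent histones, a list added after the highest ratios had been seen, had ratios above 0 throughout. Of 32 listed 13 were compared, 6 of them were at least 2-fold higher, beside 1.87% of all compared, and the median log2 ratio was 0.99. The midbody library was the highest of the 3 in all 13, beside 2354 of all 10621 compared. Most of these mRNAs end in a stem-loop and carry no poly-A tail, and 12 of the 13 had partly divided reads. H1-4, a linker histone, stood at 53.6, 21.8 and 13.8 RPKM, 2.46-fold (interval 1.94 to 3.15) higher, and H2BC18 at 89.5, 49.7 and 44.7 RPKM, 1.80-fold (interval 1.54 to 2.12) higher. H4C1, the one with whole reads, was 33 reads against 33 with an interval of 0.939 to 2.62, which included 1.

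No gene of the RNA synthesis and protein synthesis lists passed 2-fold, and the lists' medians were small. Over all compared, 1.87% were past 2-fold higher and 1.72% lower. Of 12 RNA polymerase II and elongation genes 6 intervals lay below 1 and 3 above 1, with a median of -0.12. The largest subunit POLR2A was at 9.28, 17.4 and 43.7 RPKM, lower by a factor of 1.87 (interval 1.65 to 2.14), and the coactivator EP300 was at 0.715 times its mitotic level while its paralog CREBBP was 1.19-fold (interval 1.10 to 1.29) higher. The 13 SR splicing factors and CLK kinases had a median of 0.13, from CLK4 at -0.28 to SRSF5 at 0.39. The 30 small and 41 large ribosomal subunit genes had medians of 0.21 and 0.17, and none passed 2-fold. The interval lay above 1 in 19 small and 21 large subunit genes and below 1 in 2 and 5. RPLP1, a stalk protein, had the highest ratio of the large subunit, at 254, 131 and 208 RPKM, but reads of 28 large subunit and 14 small subunit transcripts were partly divided. Translation factors had a median of 0.13, respiratory chain genes 0.18 and the core proteasome -0.06, again with none past 2-fold. Intervals above 1 numbered 9 of 16, 9 of 17 and 1 of 14 in these lists, and intervals below 1 numbered 3, 0 and 3, beside the background of 23% and 26%. That background was not matched to the read counts of the lists.

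Of the 41 proteins past 2-fold higher at an average of 50 RPKM or more, those in no list were looked at after their values were seen. ODC1, ornithine decarboxylase, which begins polyamine synthesis, stood at 246 RPKM on midbodies, 68.4 on mitotic microtubules and 196 on interphase microtubules, 3.59-fold (interval 3.36 to 3.85) higher. SAT1, which acetylates polyamines for their breakdown and export, was at 281, 135 and 139 RPKM, 2.08-fold (interval 1.87 to 2.33) higher, so enzymes of both directions were higher. TSC22D3 (GILZ), a glucocorticoid-induced regulator, was at 219, 82.2 and 115 RPKM, 2.66-fold (interval 2.47 to 2.87) higher. RCAN1, an inhibitor of calcineurin, was 3.10-fold (interval 2.79 to 3.44) higher, and the kinase PIM1 2.10-fold (interval 1.88 to 2.36) higher. Inflammatory genes not in the lists were among them, with NFKBIZ, a nuclear IkB protein, at 89, 41.6 and 12.9 RPKM and IRF1, an interferon-regulated factor, at 77.3, 34.9 and 29.0 RPKM. MMP9, a matrix protease, was at 86.1, 37.3 and 143 RPKM and SDC4, a heparan sulfate proteoglycan, at 118, 55.4 and 184 RPKM, both highest in interphase.

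The 15 lowest ratios held no listed gene and no RNA above 58.4 RPKM. ZNF202, a zinc finger factor, had the lowest ratio, with 17 reads against 179, or 1.72, 11.6 and 2.42 RPKM, lower by a factor of 6.71 (interval 4.07 to 11.8). CCDC24, a coiled-coil protein gene, had 7 reads against 68 and was lower by a factor of 6.19 (interval 2.85 to 16). SLC39A5, a zinc transporter, stood at 16.3, 58.4 and 2.83 RPKM, lower by a factor of 3.57 (interval 2.97 to 4.32), with few reads in interphase as well. PDE2A, a cyclic nucleotide phosphodiesterase, stood at 22.1, 58.2 and 29.2 RPKM, lower by a factor of 2.64 (interval 2.34 to 2.98).

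VLDLR, a lipoprotein receptor, was at 10.5, 31.3 and 34.2 RPKM. BCL9, a Wnt coactivator, was at 6.33, 19.3 and 22.7 RPKM. PDK1, the mitochondrial kinase that inhibits pyruvate dehydrogenase, was at 10.7, 28.3 and 23.9 RPKM, so interphase lay nearer to the mitotic than to the midbody level in all 3. RRH, an opsin-family gene, had 10 reads against 59. The zinc finger factor YY2, the zinc finger protein ZC3H6, the secreted glycoprotein OLFM1, the Kelch protein KLHDC1, the complement protease MASP2, the membrane protein TMEM80 and the human accession Q86XI8 completed the 15, lower by factors between 2.70 for MASP2 and 3.05 for Q86XI8. Reads of OLFM1 and MASP2 were partly divided. The mitotic library was the highest of the 3 in 13 of the 15, and interphase in 2, VLDLR and BCL9. Over all 10621 compared these counts were 2979 and 5288, and choice by the ratio keeps the midbody library from being highest here. Besides KHSRP, DQX1, a DEAQ-box protein gene, was the other abundant RNA past 2-fold lower, at 41.6, 93.8 and 3.33 RPKM.

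Over all 183 proteins past 2-fold lower, the mitotic library was the highest of the 3 in 148. For the 199 past 2-fold higher, the midbody library was the highest in 115 and the interphase library in 84. Of all 10621 compared, the mitotic library was the highest in 2979, the midbody library in 2354 and the interphase library in 5288. Choice by the ratio itself keeps the midbody library from being highest among the lower, and the mitotic library among the higher. The levels in interphase differed too. Transcripts past 2-fold higher had a median of 15.2 RPKM in interphase, those past 2-fold lower 1.49, and those between 25.3. Of the lower ones 28 (11.8%) had 0 interphase reads, against 4 (1.46%) of the higher ones and 82 (0.650%) of those between. In midbodies the medians of the higher, the lower and those between were 15.4, 1.76 and 20.2 RPKM. In mitotic microtubules they were 5.60, 5.88 and 21.2 RPKM. Both tails thus stood below the rest in these libraries too, and the part of level in the interphase differences was not tested.

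Transcript length went with the ratio. In 10 classes of equal size by length, the median log2 ratio was 0.13 in the shortest (109 to 623 bases) and -0.13 in the longest (4125 to 22209 bases), with every class below the one before it. Both tails were widest among short transcripts, with 7.08% past 2-fold higher and 5.48% past 2-fold lower in the shortest class, against 0.152% and 0.685% in the longest. Reads follow length as well, from a median of 30.5 midbody reads in the shortest class to 651 in the longest. The part of length in the gene list medians was not tested beyond centring each of 20 finer length classes on 0. That left the NF-kappaB median at 1.14, the immediate early median at 0.95 and the cholesterol median at -0.39. It brought the small and large ribosomal subunits to 0.10 and 0.07, and raised central spindle and cytokinesis from 0.16 to 0.28.

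**Figure D5:**
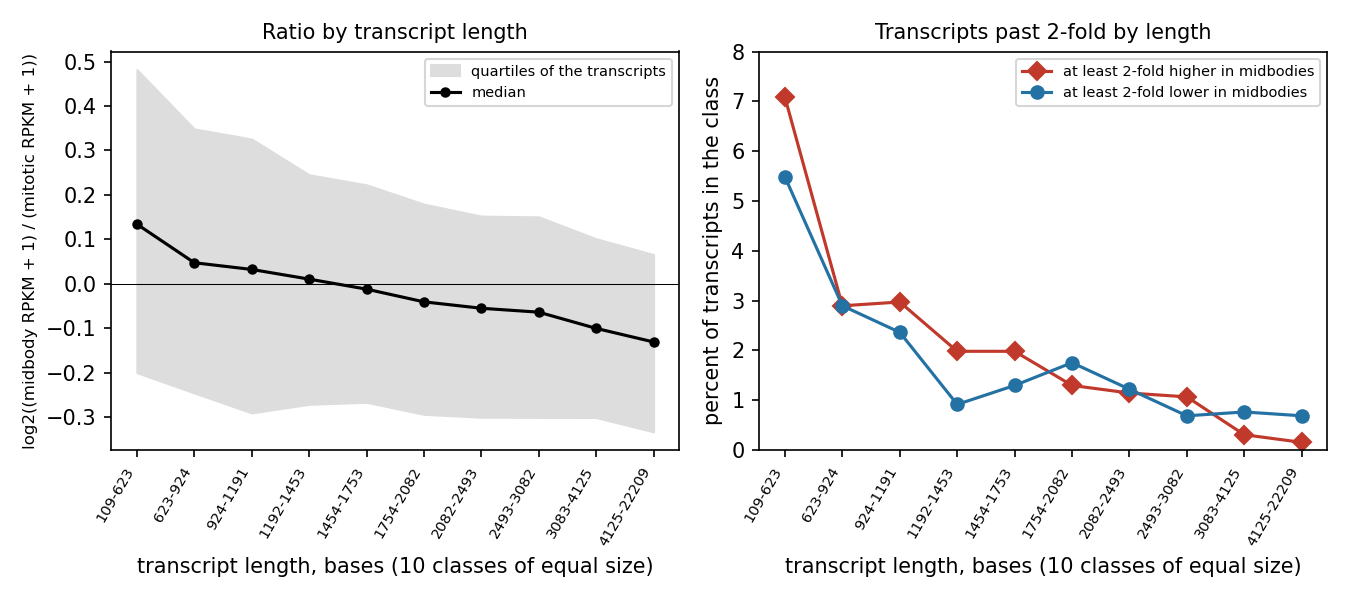
Left, median midbody to mitotic log2(RPKM + 1) ratio with quartiles (shading) in 10 classes of transcript length; right, percent of each class at least 2-fold higher (red) or lower (blue) in midbodies. The median goes from 0.13 to -0.13 with length and both tails are widest in the shortest class, 7.08% and 5.48%.

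Transcripts with over 3 reads in 1 of these libraries and none in the other were few. Reads in midbodies and none in mitotic microtubules were found for 697 transcripts, of which 15 had over 3 reads. The highest of them, human accession Q8N130, had 11, at least 5.76-fold higher against a floor of 3 reads. The reverse held for 1982 transcripts, of which 171 had over 3 reads in the deeper library. The highest, Q7Z6L0, had 26, at least 5.52-fold lower in midbodies by the same floor. Since a count of 0 allows up to 3 reads, none could be called confined to 1 structure.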

How the data were processed

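RNA was selected with a poly-dT kit and made into Illumina TruSeq libraries, per the labels' protocols. The authors' table holds estimated counts of reads per RefSeq transcript, deposited without normalization, and RPKM, computed by the authors from those reads, transcript length and library total. Counts are not whole in 15.7% of transcripts for midbodies and 16.8% for mitotic microtubules (tolerance 1e-06 reads). The score columns deposited by the authors are the BLASTX E-values of the best human protein, at most 1e-20. The authors' enrichment columns were left out. The column headed Metaphase was taken as the sample titled Mitosis. For aligner, counting program, strand and genome build: not given in the sources used here.

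UniProt accessions were turned into gene names by hand. Of 70 such transcripts that also carry a hamster symbol in NCBI RefSeq assembly CriGri-PICRH-1.0, 69 had the same symbol. An accession not known for sure is printed as such. A name stands for the best human match only, which had an E-value of 4e-25 for VLDLR and 8e-52 for HSDL2.

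Ratios used a pseudocount of 1 RPKM and a floor of 1 RPKM in either library, with 1 transcript per human protein for gene lists. Named were the 15 highest and 15 lowest ratios among proteins whose higher library reached both 10 RPKM and 50 reads, up to 4 members per list that lay farthest from 0, the 10 leading RNAs of each library and KIF23; other list members complete a group. A few genes are left out of the text and figures. The 30 lists and the members were chosen with earlier results of these data known, and 1 list was added. With 1 library per group no test was made. Alternatives were pseudocounts of 0.1 and 5, no floor and 10 RPKM, median of ratios and trimmed mean of M values (TMM) scaling, CPM, whole-read transcripts only, and 1 transcript or summed transcripts per protein. The scripts were tested on simulated data. Python 3.11.15, numpy 2.4.6, pandas 2.3.3, SciPy 1.17.1 and matplotlib 3.10.9 were used.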

Additional observations from a re-analysis of the deposited data

How the results depend on the processing

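The counts of transcripts past 2-fold, 274 higher and 237 lower, depended on how low transcripts were treated. With a pseudocount of 0.1 they were 458 and 479, and 81 and 82 past 4-fold. With a pseudocount of 5 they were 99 and 31, and 11 and 0 past 4-fold. With a floor of 10 RPKM they were 174 and 81, with 2 past 4-fold lower. The median log2 ratio was -0.042 without a floor, -0.012 with a floor of 10 RPKM, and -0.0050 and -0.0056 after median of ratios and TMM scaling, whose factors were both 0.983. Under the other alternatives the counts stayed within 1.5 times. These include 2 added after the data were seen, centring within length classes (256 and 235) and asking also for an interval that excludes 1 (258 and 177).

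Of 147 named genes, 26 were past 2-fold higher and 16 lower. A pseudocount of 5 left 23 and 14 of them past it. Of these genes 25 and 14 had whole reads, and keeping whole-read transcripts alone leaves their ratios unchanged, so it is no check of them. The TGF-beta list had 3 genes and the MAPK list 1 past 2-fold higher with a pseudocount of 5. With whole reads only, 1 histone (H4C1) remained, at 0.60 on the log2 scale. No paired analysis was possible because each group had 1 library, and for the same reason no replicate could be left out.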

Other observations

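The most abundant RNA with a human protein was the same in both libraries, S100A6, a calcium-binding protein gene, at 749.7 RPKM in midbodies and 651 in mitotic microtubules. FTH1, the ferritin heavy chain, was among the 10 most abundant in midbodies and not among the mitotic 10, at 637 RPKM on midbodies, 351 on mitotic microtubules and 869 on interphase microtubules, 1.82-fold (interval 1.73 to 1.91) higher than in mitotic microtubules. A further 3 of the 10 were shared with the mitotic library and stood far lower in interphase: BCAP29, at 704, 544 and 169 RPKM, HSDL2 at 649, 505 and 121 RPKM, and ACTR2 at 477, 539 and 163 RPKM. Reads of BCAP29, HSDL2 and ACTR2 were partly divided with other transcripts, and what the divided reads contribute was not tested.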
